A study of Mus musculus with 12 samples.

Results

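The 10 genes described here carry the glycerol and triglyceride synthesis steps of the adipocyte: Gk, Gpd1, Pck1, Aqp7, Gpam, Gpat3, Agpat2, Lpin1, Dgat1 and Dgat2. They were chosen by symbol, each symbol matched a row of the deposited gene list, and they are 10 of the 32285 genes listed. The rule uses symbols only and no threshold on a measured value, but the members were chosen with earlier results of these data known. Counts of members beside the shares of all genes are therefore descriptions. Levels were read in adipocyte-like nuclei, which are the nuclei of 10 clusters named from 8 adipocyte markers, and then in other marker-named classes for contrast.

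The series measured single-nucleus RNA in mouse adipose depots across ages and after cold, with 1 library per group and 12 libraries in all. All mice were male C57BL/6J on normal chow, with no transgene or deletion named in the labels. Room temperature was 22 °C and cold was 4 °C for 3 days. mPRAT and iBAT were sampled at 1, 2 and 6 months at room temperature and at 6 months after cold. lPRAT was sampled at 2 and 6 months at room temperature, and iWAT at 6 months at room temperature and after cold. The titles of the 6-month libraries state that age, while their characteristics state 16 weeks, and the younger libraries are given as 4 and 8 weeks. The labels do not spell out the depot abbreviations. mPRAT and lPRAT are usually the medial and lateral parts of perirenal fat, iBAT the brown fat between the shoulder blades, and iWAT the white fat of the groin. The labels do not say how many animals were pooled in a library. With 1 library per group no difference can be tested, and animal, dissection, library and condition cannot be told apart. Intervals below are 95% intervals for counting error only.

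Adipocyte-like nuclei numbered between 1933 in lPRAT at 6 months and 15373 in iBAT at 6 months, with a median depth between 890.0 UMIs in lPRAT at 2 months and 6645 UMIs in iWAT at room temperature. All 8 adipocyte markers were detected in these nuclei in every library, and their summed level was between 11034 and 33026 CPM (the gene's UMIs as a share of all UMIs of the class, on the usual CPM scale). Several libraries stood apart from the rest. In cold mPRAT 66.0% of barcodes exceeded the mitochondrial limit. That share also moved with age, being 7.42%, 22.1% and 2.03% at 1, 2 and 6 months in mPRAT and 21.4% and 5.29% at 2 and 6 months in lPRAT. Also, several adipocyte clusters came mostly from 1 library. Cluster 17 drew 9389 of its 9671 nuclei from cold iBAT, cluster 20 drew 1717 of 2192 from lPRAT at 2 months, cluster 21 drew 1175 of 1218 from cold mPRAT, and clusters 8 and 28 drew 13069 of 15573 and 28 of 34 from iBAT at 6 months and room temperature. The number of barcodes shared by a pair of libraries was between 3 and 76.

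Triglyceride is built on glycerol-3-phosphate. Adipocytes make it from glucose, from lactate and amino acids through phosphoenolpyruvate carboxykinase (Pck1, glyceroneogenesis), or from glycerol through glycerol kinase (Gk). Glycerol-3-phosphate dehydrogenase (Gpd1) acts both in the route from glucose and in glyceroneogenesis. Glycerol kinase is classically low in white fat and high in brown fat, so white adipocytes mostly release the glycerol of lipolysis, through the channel aquaporin 7 (Aqp7). The acyl chains are then added by glycerol-3-phosphate acyltransferases (Gpam in mitochondria, Gpat3 in the endoplasmic reticulum) and Agpat2, the phosphate is removed by lipin 1 (Lpin1), and the last chain is added by Dgat1 or Dgat2.

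The start regions of 4 members are shown because their levels follow the clearest and most different patterns below: Gk and Gpat3 differ in opposite directions between iBAT and iWAT, Pck1 differs with age, and Gpam is higher after cold in each depot sampled. They are RefSeq sequences on GRCm38.p6, 250 bases before to 50 bases after an annotated start, 5′ to 3′ on the gene's strand, and 7 of the 10 members had an entry. Capitals mark matches, on either strand, to motifs that were searched by their letters alone.
Gk, chrX:85776770-85777069, minus strand: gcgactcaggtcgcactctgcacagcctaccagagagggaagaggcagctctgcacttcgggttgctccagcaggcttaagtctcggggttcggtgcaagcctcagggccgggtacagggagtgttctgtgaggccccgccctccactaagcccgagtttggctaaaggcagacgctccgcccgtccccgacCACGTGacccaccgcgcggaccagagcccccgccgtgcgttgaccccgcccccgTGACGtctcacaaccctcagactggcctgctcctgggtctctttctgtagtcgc
Pck1, chr2:173152823-173153122, plus strand: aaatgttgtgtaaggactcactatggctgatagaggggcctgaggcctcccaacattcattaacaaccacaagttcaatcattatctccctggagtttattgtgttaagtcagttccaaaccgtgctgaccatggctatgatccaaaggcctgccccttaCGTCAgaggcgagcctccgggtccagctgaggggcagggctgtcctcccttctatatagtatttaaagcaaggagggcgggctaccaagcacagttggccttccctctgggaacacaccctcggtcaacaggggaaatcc
Gpat3, chr5:100845979-100846278, plus strand: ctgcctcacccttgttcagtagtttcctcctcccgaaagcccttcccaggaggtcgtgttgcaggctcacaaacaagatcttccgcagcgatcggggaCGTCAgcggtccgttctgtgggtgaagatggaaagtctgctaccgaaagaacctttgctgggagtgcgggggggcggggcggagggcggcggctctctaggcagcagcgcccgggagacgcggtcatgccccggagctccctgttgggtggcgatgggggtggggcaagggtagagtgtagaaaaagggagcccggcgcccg
Gpam, first of 2 listed starts, chr19:55127189-55127488, minus strand: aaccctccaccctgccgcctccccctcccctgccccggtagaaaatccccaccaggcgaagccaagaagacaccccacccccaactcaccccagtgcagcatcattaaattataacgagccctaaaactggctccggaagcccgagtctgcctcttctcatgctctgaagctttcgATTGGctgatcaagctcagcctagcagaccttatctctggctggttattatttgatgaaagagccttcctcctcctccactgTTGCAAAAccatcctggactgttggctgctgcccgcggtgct

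The Gk window holds the E-box CACGTG at position -58 from the start and the cAMP response element core TGACG at -4. The Pck1 window holds that core on the opposite strand, as CGTCA, at -90, and the Gpat3 window holds it at -152. The Gpam window holds a CCAAT box, read as ATTGG on the opposite strand, at -74 and a match to TTGCNNAA, the C/EBP pattern, at 9. TGACG occurs in 20.8% of 32851 start windows of this length, CACGTG in 7.15%, CCAAT in 37.4% and TTGCNNAA in 10.8%. The core TGACG was thus found in both Gk and Gpat3. The other motifs searched were the full cAMP response element TGACGTCA, the nuclear receptor site AGGTCA, the TATA box TATAAA and the PPAR element, which is a direct repeat of the nuclear receptor site. They were held by 1.79%, 16.3%, 13.6% and 0.0396% of the windows. TGACGTCA contains TGACG, and the PPAR element contains AGGTCA. The Agpat2 window held no match to any of the 8 motifs. AGGTCA matched in the windows of Aqp7, Lpin1 and the second Gpam start, and the second Gpam start also held TGACG at -31 and -9. A match describes letters in a window and nothing about binding.

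Gk (ENSMUSG00000025059, chromosome X, 85701937 to 85776819, minus strand, GENCODE M21 on GRCm38 as for all positions of genes below) varied the most of the 10 members across libraries. In mPRAT it measured 100.4 CPM at 1 month, 590.1 at 2 months, 715 at 6 months and 1394 after cold. In iBAT the same order gave 145, 895, 656 and 1602 CPM. lPRAT had 15.9 and 25.9 CPM at 2 and 6 months, and iWAT had 26.8 CPM at room temperature and 163 after cold. The highest library was 101-fold above the lowest. mPRAT and iBAT at 2 months or older stood above all other libraries, and only the neighbours lPRAT at 6 months and iWAT at room temperature had overlapping intervals.

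Gpd1 (ENSMUSG00000023019, chromosome 15, 99717515 to 99725005, plus strand) measured 672, 533 and 494 CPM in mPRAT at 1, 2 and 6 months and 1011 after cold. In iBAT it measured 1617, 1249.8 and 1071 CPM with age and 1846 after cold. lPRAT had 205 and 216 CPM, and iWAT had 148 at room temperature and 157 after cold. All iBAT libraries were above all mPRAT libraries, which were above all lPRAT and iWAT libraries.

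Pck1 (ENSMUSG00000027513, chromosome 2, 173153048 to 173159273, plus strand) had no such depot order. It measured 1259, 1534 and 799.8 CPM in mPRAT at the 3 ages and 641 in the cold library. iBAT had 1250.0, 1130.4 and 524 CPM by age and 617 after cold. lPRAT had 508 and 949 CPM, and iWAT 1143 and 899.6 CPM without and with cold. The lowest libraries, lPRAT at 2 months and iBAT at 6 months, overlapped in their intervals, and the range across libraries was 3.02-fold.

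Aqp7 (ENSMUSG00000028427, chromosome 4, 41033074 to 41048139, minus strand) stayed between 39.7 and 142 CPM. mPRAT had 78.4, 73.6 and 119.9 CPM with age and 93.6 in its cold library, while iBAT had 105, 96.9 and 142 by age and 137 after cold. lPRAT had 39.7 and 111 CPM, and iWAT had 82.4 and 67.4 CPM. Of the 11 neighbouring pairs when the libraries are ordered by level, 5 had a ratio whose interval held 1.

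**Figure D1:**
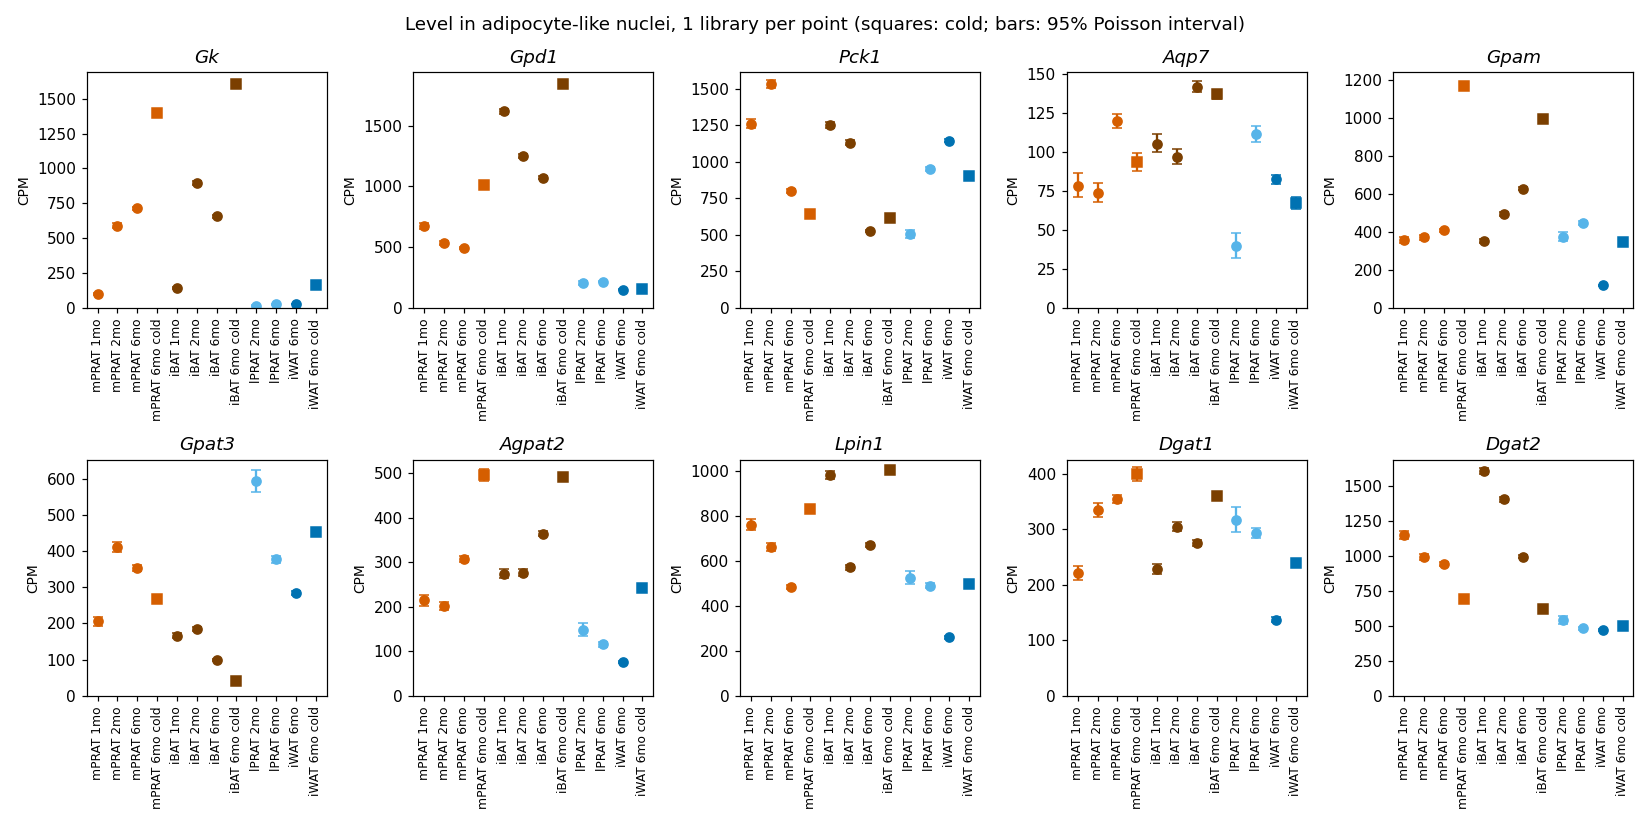
Level of each gene in CPM (vertical axis, from 0) in adipocyte-like nuclei of the 12 libraries (horizontal axis), with circles for room temperature, squares for cold and bars for the 95% Poisson interval. Gpd1 is lower in every lPRAT and iWAT library than in any mPRAT or iBAT library, whereas Gpat3 is lowest in cold iBAT (40.3 CPM) and highest in lPRAT at 2 months (594 CPM).

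Gpam (ENSMUSG00000024978, chromosome 19, 55067268 to 55127238, minus strand) measured 356, 372 and 408 CPM at the 3 ages in mPRAT and 1169.7 in its cold library. The iBAT libraries had 352, 497 and 628 CPM by age and 997 after cold. lPRAT had 375 and 446 CPM, while iWAT had 119 at room temperature and 349 after cold. The cold mPRAT and cold iBAT libraries were highest and iWAT at room temperature lowest, a 9.81-fold range.

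Gpat3 (ENSMUSG00000029314, chromosome 5, 100845713 to 100899102, plus strand) followed another order. The mPRAT libraries held 206, 412 and 354 CPM with age and 268 CPM in the cold, but there were only 166, 184 and 98.7 CPM in iBAT by age and 40.3 after cold. lPRAT had 594 and 377 CPM, and iWAT 283 and 453 CPM. Every iBAT library was below every library of the other depots, and no neighbouring pair in the order had a ratio whose interval held 1.

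Agpat2 (ENSMUSG00000026922, chromosome 2, 26593057 to 26604417, minus strand), whose loss in people causes congenital lipodystrophy, measured 214, 201 and 307 CPM at the 3 mPRAT ages and 495 CPM in cold mPRAT. iBAT had 274, 276 and 364 CPM by age and 490.5 after cold. lPRAT had 148 and 115 CPM, and iWAT had 75.5 at room temperature and 242 after cold. The cold mPRAT and cold iBAT libraries were highest and overlapped.

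Lpin1 (ENSMUSG00000020593, chromosome 12, 16535669 to 16610966, minus strand) measured 761, 662 and 483 CPM at the 3 mPRAT ages and 832 CPM in cold mPRAT. iBAT had 980.4, 572 and 671 CPM by age and 1004 after cold. lPRAT had 524 and 489 CPM, and iWAT had 259 and 496 CPM. iWAT at room temperature was the lowest library, and its cold counterpart overlapped the lPRAT libraries.

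Dgat1 (ENSMUSG00000022555, chromosome 15, 76502015 to 76511953, minus strand) had the narrowest range, 2.91-fold. The mPRAT libraries held 221, 335 and 355 CPM with age and 399 CPM in the cold, and the iBAT libraries 228, 305 and 275 CPM with age and 360.0 CPM in the cold. lPRAT had 317 and 293 CPM, and iWAT had 137 and 239 CPM. Of the neighbouring pairs, 6 had a ratio whose interval held 1.

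Dgat2 (ENSMUSG00000030747, chromosome 7, 99153658 to 99182719, minus strand) ran from 470.2 CPM in iWAT to 1610.4 CPM in iBAT at 1 month. mPRAT had 1152, 996 and 943 CPM with age and 689 in the cold, while iBAT had 1610.4, 1406 and 996 CPM by age and 622 after cold. lPRAT had 539 and 483 CPM, and iWAT had 470.2 and 499 CPM. In both mPRAT and iBAT the cold library was the lowest of the depot.

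At 6 months and room temperature, iBAT adipocyte-like nuclei had more of most members than iWAT. In counts of members and of genes, higher or lower means a ratio of CPM of at least 2-fold, and smaller differences are given as log2 values. Against iWAT, 7 of 10 members were higher in iBAT and 2 lower, where 19.2% of all 16276 genes with at least 20 counts were higher and 17.7% lower. The median over the members was 1.23 on the log2 scale, beside 0.087 over all these genes. Among genes of at least 50 CPM in either library, a background chosen after the data were seen, 15.2% were higher and 14.4% lower. Gk was 24.4-fold higher (log2 4.61, 4.52 to 4.71) and Gpd1 7.26-fold higher (log2 2.86, 2.82 to 2.90). Gpam was 5.26-fold, Agpat2 4.82-fold, Lpin1 2.59-fold, Dgat2 2.12-fold and Dgat1 2.01-fold higher. Pck1 was 2.18-fold and Gpat3 2.87-fold lower in iBAT, and Aqp7 was at log2 0.79. The Dgat1 fold fell under 2 with TMM scaling (log2 0.93), and the Dgat2 fold after subtracting the macrophage-like level (log2 0.94).

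mPRAT against iWAT gave 6 members higher and 0 lower, beside 13.9% of genes higher and 9.04% lower (7.25% and 6.27% of those with at least 50 CPM). The member median was 1.19, beside 0.10 over all genes. Gk was 26.7-fold, Agpat2 4.07-fold, Gpam 3.42-fold, Gpd1 3.35-fold and Dgat1 2.59-fold higher. Dgat2 was 2.01-fold higher and dropped under the 2-fold line with TMM scaling (log2 0.89). Lpin1 was at log2 0.90, Aqp7 at 0.54, Gpat3 at 0.32 and Pck1 at -0.52. lPRAT exceeded iWAT by 2-fold in 2 members, with 0 lower, beside 11.4% and 8.19% of genes (4.55% and 3.15% at 50 CPM). These were Gpam, 3.74-fold, and Dgat1, 2.14-fold, the latter at log2 0.98 under TMM. Lpin1 was at log2 0.91, Agpat2 0.61, Gpd1 0.55, Aqp7 0.44, Gpat3 0.41, Dgat2 0.04, Gk -0.05 and Pck1 -0.27. TMM shifted the mPRAT comparison by -0.11 and the lPRAT comparison by -0.12. These 3 comparisons share the iWAT library, so they are given side by side and not counted against each other.

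**Figure D2:**
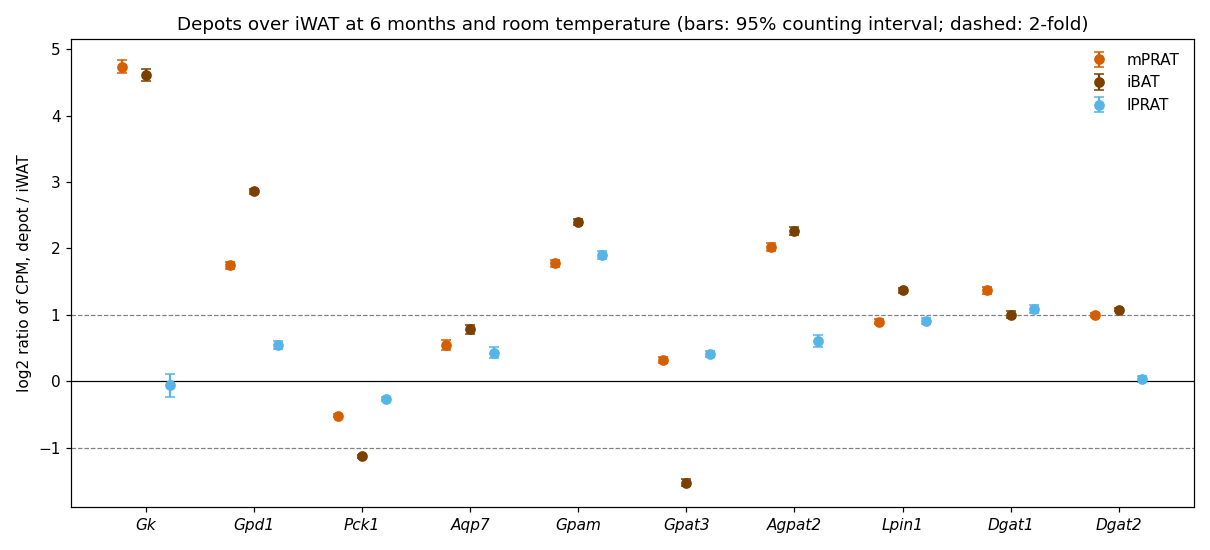
Log2 ratio of CPM (vertical axis) of mPRAT, iBAT and lPRAT over iWAT at 6 months and room temperature for each gene (horizontal axis), with 95% counting intervals and dashed lines at 2-fold. Gk lies at 4.74 in mPRAT and 4.61 in iBAT but at -0.05 in lPRAT, and Gpat3 is at -1.52 in iBAT alone.

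The perirenal depots differed from each other in Gk. mPRAT was above lPRAT in 3 members, with 0 lower, beside 12% of genes higher and 11% lower (6.8% and 7.84% at 50 CPM). Gk was 27.6-fold higher (log2 4.79, 4.64 to 4.94), Agpat2 2.67-fold and Gpd1 2.29-fold. In lPRAT, Gk in adipocyte-like nuclei (25.9 CPM) was below its level in macrophage-like nuclei (41.8 CPM), so with that level subtracted no Gk ratio could be computed. Lpin1 was at log2 -0.02 (-0.06 to 0.03) and Gpat3 at -0.09 (-0.14 to -0.05), whereas Dgat2 was just under 2-fold higher in mPRAT (log2 0.97). Dgat1 was at 0.27, Aqp7 at 0.11, Gpam at -0.13 and Pck1 at -0.25. Against iBAT, mPRAT had Gpat3 3.58-fold higher (log2 1.84, 1.79 to 1.90) and Gpd1 2.17-fold lower (log2 -1.12, -1.15 to -1.09), or 1 member each way. The shares of all genes were 13% higher and 8.66% lower (6.75% and 5.54% at 50 CPM). Gk was at log2 0.13 between these depots, Pck1 at 0.61, Dgat1 0.36, Dgat2 -0.08, Aqp7 and Agpat2 both -0.24, Lpin1 -0.47 and Gpam -0.62. Gpd1 kept its direction at -0.68 after the macrophage-like level was subtracted.

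In the cold as at room temperature, iBAT had the lowest Gpat3 level of mPRAT, iBAT and iWAT. In the cold, mPRAT exceeded iBAT by 2-fold in Gpat3 alone (6.66-fold, log2 2.73, 2.66 to 2.81), with 0 lower. The 2 libraries differed in clusters, as 97.1% of cold iBAT nuclei were in cluster 17. Of cold mPRAT nuclei, 54.7% were in cluster 21 and 31.3% in cluster 0. Over all libraries, Gpat3 was at 36.9 CPM in cluster 17, 46.6 in cluster 21 and 453 in cluster 0. Of all genes, 13.5% were higher and 7.13% lower (6.09% and 3.12% at 50 CPM). Gpam was at log2 0.23, Dgat1 and Dgat2 both 0.15, Pck1 0.06, Agpat2 0.01, Gk -0.20, Lpin1 -0.27, Aqp7 -0.55 and Gpd1 -0.87. TMM scaling shifted every log2 ratio of this comparison by -0.26, after which 1 member, Gpd1, was 2-fold lower (-1.13), 1 in place of 6 members lay above 0, and 50.5% in place of 65.4% of all calls were higher. Cold iWAT against cold iBAT had 6 members lower and 1 higher, beside 26.9% of genes lower and 17.8% higher (21.1% and 16.1% at 50 CPM). Gpd1 was 11.8-fold, Gk 9.84-fold and Gpam 2.86-fold lower, and Gpat3 was 11.2-fold higher. Pck1 was at log2 0.55, Dgat2 at -0.32 and Dgat1 at -0.59. Aqp7, Agpat2 and Lpin1 were each 2.03-fold lower, and with TMM scaling they passed under the 2-fold line, which left 3 members lower.

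With age, Gk was the member that differed the most in the young depots. Between 1 and 2 months it was 5.88-fold higher in mPRAT (log2 2.55, 2.42 to 2.69) and 6.17-fold higher in iBAT (log2 2.62, 2.55 to 2.70). It was the sole member past 2-fold in each depot, with 0 lower, beside 2.36% of genes higher and 8.01% lower in mPRAT and 2.74% higher and 6.63% lower in iBAT. Among genes of at least 50 CPM, 1.41% were higher and 1.69% lower in mPRAT, and 0.958% and 2.18% in iBAT. The share of adipocyte-like nuclei with a Gk UMI, after thinning each nucleus to 1000 UMIs, was 9.19% at 1 month and 31.2% at 2 months in mPRAT, and 12.9% and 49.5% in iBAT. The unthinned shares were 14.7% and 40.1% in mPRAT, and 16.3% and 60.6% in iBAT.

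Other classes of the same libraries held more Gk at 2 months too. In iBAT, ASPC-like nuclei (adipose stem and progenitor cells) had 29.6 and 98.0 CPM at 1 and 2 months, endothelial-like nuclei 32.7 and 137 CPM, and mural-like nuclei 31.9 and 118 CPM. In mPRAT, ASPC-like nuclei had 33.3 and 70.5 CPM and kidney tubule-like nuclei 443 and 1113 CPM. The mix of the kidney class differed, with 405 and 160 nuclei of cluster 3 and 487 and 381 of cluster 5 at these ages. Over all libraries Gk was at 45.8 CPM in cluster 3 and 1234 CPM in cluster 5. The part of this mix in the kidney values was not tested. Macrophage-like nuclei of iBAT had 43.5 CPM (11.8 to 111) at 1 month and 334 CPM (195 to 535) at 2 months, the latter from 17 UMIs in 38 nuclei, against 895 CPM (881 to 910) in adipocyte-like nuclei at 2 months. After thinning, 38.9% of 18 macrophage-like nuclei of that library had a Gk UMI (exact interval 17.3% to 64.3%), an interval that holds the adipocyte-like share of 49.5%. Within each of the 3 adipocyte clusters that had at least 100 nuclei at both ages in mPRAT, Gk was higher at 2 months, by log2 values of 2.78, 3.25 and 2.86. In the 4 such clusters of iBAT the values were 1.64, 2.28, 2.76 and 2.53. The part of RNA from outside the nucleus in the Gk values was not tested.

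Gpat3 lay just under 2-fold higher in mPRAT between 1 and 2 months (412 against 206 CPM) and was at log2 1.21 with TMM scaling, which shifted that comparison by 0.21. Relative to that shift, 9 members were above 0, against 5 without it, and 43.9% of all calls were higher against 22.8%. The other members were within 2-fold in both depots. In mPRAT, Dgat1 was at log2 0.60, Pck1 0.29, Gpam 0.06, Agpat2 and Aqp7 both -0.09, Lpin1 -0.20, Dgat2 -0.21 and Gpd1 -0.33. In iBAT, Gpam was at 0.50, Dgat1 0.42, Gpat3 0.15, Agpat2 0.01, Aqp7 -0.12, Pck1 -0.15, Dgat2 -0.20, Gpd1 -0.37 and Lpin1 -0.78. The member medians were -0.01 in mPRAT and -0.06 in iBAT, beside -0.15 and -0.05 over all genes.

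Between 2 and 6 months Pck1 was lower in mPRAT and iBAT and higher in lPRAT. The log2 ratios were -0.94 in mPRAT (800 against 1534 CPM), -1.11 in iBAT (524 against 1130.4 CPM) and 0.90 in lPRAT (949 against 508 CPM). In mPRAT 0 members passed 2-fold, where 11.1% of genes were higher and 5.97% lower (3.67% and 1.21% at 50 CPM). In iBAT Pck1 was the sole member lower and 0 were higher, beside 7.47% of genes lower and 10.5% higher (2.79% and 4.94% at 50 CPM). The iBAT value was -0.61 once the macrophage-like level was subtracted. In lPRAT the sole member past 2-fold was Aqp7, 2.81-fold higher (log2 1.49, 1.20 to 1.80), with 0 lower, beside 15.3% of genes higher and 11.8% lower (9.18% and 6.16% at 50 CPM). The lPRAT library at 2 months was the shallowest. Pck1 passed 2-fold in lPRAT with TMM scaling (1.08), where TMM shifted the comparison by 0.18. With that scaling 8 in place of 5 members lay above 0, and 67.7% in place of 56.4% of all calls were higher.

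The other members were within 2-fold between 2 and 6 months. In mPRAT, Aqp7 was at log2 0.70, Agpat2 0.61, Gk 0.28, Gpam 0.14, Dgat1 0.08, Dgat2 -0.08, Gpd1 -0.11 and Lpin1 -0.45. In iBAT, Aqp7 was at 0.55, Agpat2 0.40, Gpam 0.34, Lpin1 0.23, Dgat1 -0.15, Gpd1 -0.22, Gk -0.45 and Dgat2 -0.50. In lPRAT, Gk was at 0.71 (0.23 to 1.21, with 40 UMIs at 2 months). Gpam there was at 0.25, Gpd1 0.08, Lpin1 -0.10, Dgat1 -0.12, Dgat2 -0.16 and Agpat2 -0.36.

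The direction of Pck1 was alike in the adipocyte clusters of each depot. Its log2 values were -0.75 and -0.81 in the 2 mPRAT clusters with at least 100 nuclei at 2 and 6 months. They were between -1.13 and -0.49 in the 4 iBAT clusters, and 0.90 and 1.37 in the 2 lPRAT clusters. Those 2 clusters held 10.7% and 6.26% of the lPRAT nuclei at 2 months, when 82.0% were in cluster 20, while 88.4% were in cluster 2 at 6 months. In iBAT, 77.7% were in cluster 6 at 2 months and 85.0% in cluster 8 at 6 months, and in mPRAT, 55.3% were in cluster 1 at 2 months and 40.6% in cluster 0 at 6 months. The whole-class values of all 3 depots thus compare libraries whose largest clusters differ. Without the mitochondrial limit the whole-class Pck1 values were -0.93 in mPRAT and 0.94 in lPRAT. Gpat3 was also lower at 6 months in each of these 8 clusters, with whole-class log2 ratios of -0.22 in mPRAT (0.23 with the macrophage-like level subtracted), -0.90 in iBAT and -0.65 in lPRAT.

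After 3 days in the cold, Gk, Gpam, Agpat2, Lpin1 and Dgat1 had log2 ratios above 0 in mPRAT, iBAT and iWAT under every alternative run over the whole class. Scaled to the class total, Gk passed 2-fold in iBAT and iWAT, Gpam in mPRAT and iWAT, and Agpat2 in iWAT. Lpin1 and Dgat1 stayed under 2-fold in all 3 depots by that scaling, but with the macrophage-like level subtracted both passed it in iWAT (1.09 and 1.19), as did Lpin1 with TMM (1.10). Gpat3 was below 0 in mPRAT and iBAT and above 0 in iWAT. Cold mPRAT had 2 members at least 2-fold higher and 0 lower, beside 10.7% of genes higher and 13.2% lower (6.3% and 5.26% at 50 CPM). These were Gpam, 2.87-fold (log2 1.52, 1.48 to 1.56), and Gpd1, 2.05-fold (log2 1.03, 0.99 to 1.07), the latter at 0.99 with TMM and 0.98 with the mean of nuclei. Gk was at log2 0.96, Lpin1 at 0.78, Agpat2 at 0.69 and Dgat1 at 0.17. Dgat2 (-0.45), Gpat3 (-0.40), Aqp7 (-0.36) and Pck1 (-0.32) were below 0. Without the mitochondrial limit, which removed most barcodes of this library, the median over the members was 0.41 and it was 0.43 with it. The 10 epithelial markers summed to 308 CPM in these cold nuclei and 14.0 CPM at room temperature, and the part of epithelial RNA in the members' values was not tested.

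Cold iBAT had 1 member higher, Gk at 2.44-fold (log2 1.29, 1.27 to 1.31), and 1 lower, Gpat3 at 2.45-fold (log2 -1.29, -1.36 to -1.22). The shares of all genes were 10.3% higher and 18.1% lower (7.05% and 7.53% at 50 CPM). Gpd1 was at log2 0.79, Gpam 0.67, Lpin1 0.58, Agpat2 0.43, Dgat1 0.39 and Pck1 0.23, and Dgat2 was at -0.68. Aqp7 was at -0.05, and at 0.13 with TMM scaling, which shifted the comparison by 0.18 and put 46.9% in place of 36.3% of all calls on the higher side. The Gpat3 value was -0.72 after the macrophage-like level was subtracted. Macrophage-like nuclei held 42.0 CPM (20.2 to 77.3, from 10 UMIs) at room temperature and 6.0 CPM (1.63 to 15.3, from 4 UMIs) in the cold. The subtracted Gpat3 value is therefore imprecise. By the same subtraction Gpd1 and Gpam passed 2-fold, both at 1.02.

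Cold iWAT had 3 members higher and 0 lower, beside 4.47% of genes higher and 14.3% lower (3.78% and 5.26% at 50 CPM). Gk was 6.07-fold higher (log2 2.60, 2.49 to 2.71), and 2.25-fold higher in clusters 0 and 2, which held 91.4% of these cold nuclei. Agpat2 was 3.21-fold higher (1.68, 1.61 to 1.75) and Gpam 2.93-fold (1.55, 1.49 to 1.61). Lpin1 was at log2 0.93, Dgat1 at 0.80, Gpat3 at 0.68, Gpd1 at 0.09 and Dgat2 at 0.08. Aqp7 (-0.29) and Pck1 (-0.35) were below 0. With TMM scaling, which shifted the comparison by 0.17, the number of members higher was 4, Lpin1 passed 2-fold at 1.10 and the share of calls that were higher was 34.8% in place of 23.9%.

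Gk was also higher in other classes of the cold libraries. Endothelial-like nuclei held 36.4 CPM at room temperature and 350.3 CPM in the cold in mPRAT, and 84.3 and 370.4 CPM in iBAT. ASPC-like nuclei held 41.7 and 109.7 CPM in mPRAT, 127 and 235 CPM in iBAT and 21.9 and 79.9 CPM in iWAT. Macrophage-like nuclei of iBAT had 134.5 CPM (92.0 to 189.9) at room temperature and 236.3 CPM (200.9 to 276.2) in the cold. In mPRAT they had 42.4 (29.7 to 58.8) and 76.4 CPM (49.4 to 112.8), and these intervals overlap. Macrophage-like nuclei of iWAT had 10.8 and 16.0 CPM, with overlapping intervals, beside 26.8 and 163 CPM in its adipocyte-like nuclei. The part of free RNA in these values was not tested.

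**Figure D3:**
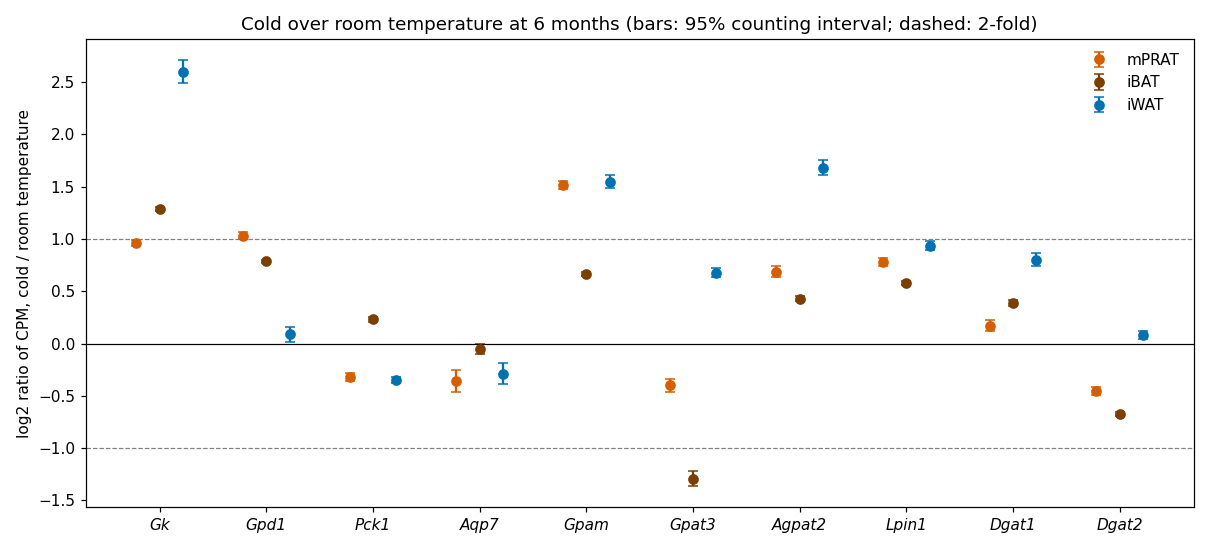
Log2 ratio of CPM in cold over room temperature (vertical axis) for each gene (horizontal axis) in mPRAT, iBAT and iWAT at 6 months, with 95% counting intervals and dashed lines at 2-fold. Gk, Gpam, Agpat2, Lpin1 and Dgat1 lie above 0 in each depot, and Gpat3 is below 0 in mPRAT (-0.40) and iBAT (-1.29) and at 0.68 for iWAT.

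The cold differences were also read inside single adipocyte clusters, which were made without these 10 genes and without Ucp1, the uncoupling protein that marks thermogenic adipocytes. This comparison was chosen after the data were seen, and it is a description. The whole-class cold ratios of iBAT and mPRAT compare largely different clusters, since cluster 8 held 85.0% of iBAT nuclei at room temperature and cluster 17 held 97.1% in the cold, and cluster 21 held 54.7% of cold mPRAT nuclei and 5 nuclei at room temperature. The make-up of iWAT differed too. Its cluster 2 held 69.4% and its cluster 0 28.7% at room temperature, against 34.0% and 57.5% in the cold. In cluster 0, which held Ucp1 at 2.88 to 251 CPM and has at least 100 nuclei in all 6 libraries concerned, but only 1.07% and 1.50% of the iBAT nuclei, Gpam was higher in the cold by log2 1.51 (mPRAT), 1.59 (iBAT) and 1.29 (iWAT). Agpat2 was higher there by 0.77, 1.47 and 1.35, and Lpin1 by 0.70, 0.68 and 0.66. Gpat3 was above 0 in that cluster in each depot, at 0.42, 0.25 (-0.03 to 0.53) and 0.29. Over the whole class it was below 0 in mPRAT and iBAT. The Gk values were 0.31, 2.23 and 1.26. The other clusters with at least 100 nuclei in both libraries gave Gk values of -0.38 (-0.53 to -0.23) in cluster 1 of mPRAT, where Gk was 1233 CPM in the cold and 1603 at room temperature, and 0.40 (0.17 to 0.61) in cluster 2 of iWAT. For those other clusters only Gk is given. The values that follow are again for cluster 0, where Dgat2 lay between -0.08 and 0.02. Dgat1 was at -0.09 (-0.18 to -0.01) in mPRAT, -0.03 in iBAT and 0.17 in iWAT. Aqp7 was at -0.98 in mPRAT, -0.63 in iBAT and -0.33 in iWAT. Pck1 was at 0.02, 0.31 and -0.91, and Gpd1 at 0.34, 1.11 and -0.24.

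Gk also differed between the clusters of 1 library. In mPRAT at room temperature, Gk was 1519 CPM in cluster 8 and 1603 CPM in cluster 1, against 183 in cluster 0 and 56 in cluster 2. Ucp1 in the same clusters was 506, 386, 13.6 and 3.40 CPM. In cold mPRAT, cluster 21, with 54.7% of the nuclei, had 2130 CPM of Gk, 1456 of Gpd1 and 44.5 of Gpat3, while cluster 0, with 31.3%, had 226, 370 and 605 CPM. Cluster 21 held Ucp1 at 1177 CPM and cluster 0 at 42.3 CPM.

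In cold iWAT, the nuclei of cluster 1, 3.92% of the adipocyte-like nuclei, held 35.2% of the Gk UMIs. Gk measured 2303 CPM in them, 83.6 in cluster 0 and 32.4 in cluster 2, with Ucp1 at 522, 5.68 and 1.12 CPM. Leaving out that cluster, a step added after the data were seen, left Gk at 108 CPM in cold iWAT, 4.03-fold above room temperature. A further 124 nuclei outside clusters 0, 1 and 2 held 29.4% of the Gk UMIs and 46.7% of the Ucp1 UMIs, with Gk at 2257 CPM. In clusters 0 and 2 alone, also chosen after the data were seen, Gk was 60.4 CPM in the cold and 26.8 CPM at room temperature, 2.25-fold (log2 1.17, 1.04 to 1.30) in place of 6.07-fold. In those clusters Gpam was 2.84-fold and Agpat2 3.11-fold higher.

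**Figure D4:**
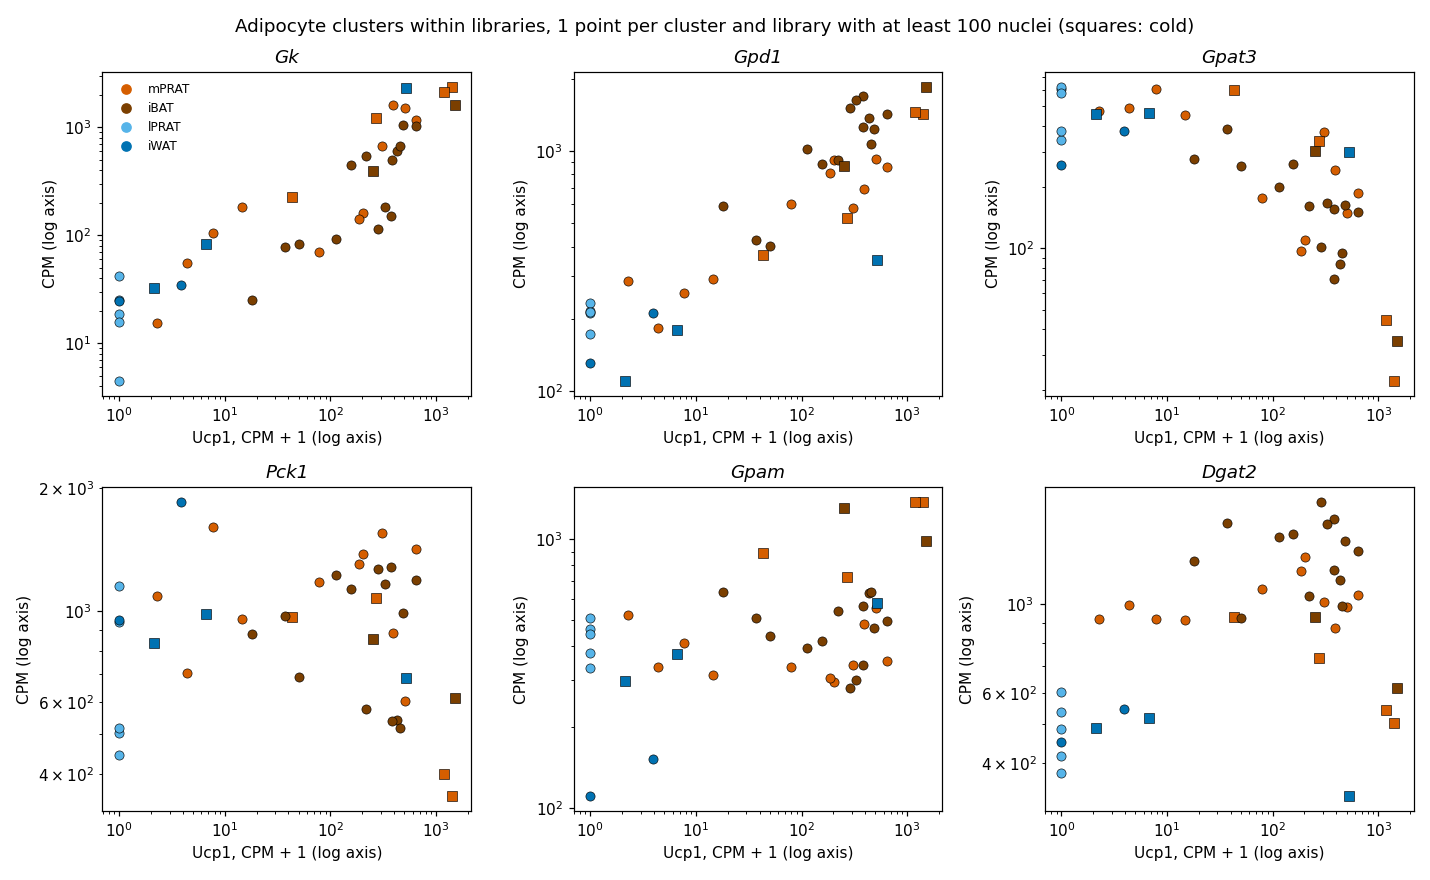
CPM of 6 genes (vertical log axes) against Ucp1 CPM plus 1 (horizontal log axes) in each adipocyte cluster of each library with at least 100 nuclei, 41 points in all, with squares for cold libraries. In cold mPRAT, cluster 21 (Ucp1 1177 CPM) has Gk at 2130 CPM and Gpat3 at 44.5 CPM, and cluster 0 (Ucp1 42.3 CPM) has 226 and 605 CPM.

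The nuclei of a library were also split by Ucp1 itself. Nuclei with at least 2000 UMIs were thinned to that number, and those with a Ucp1 UMI were compared with those at 0. This left out 7039 of the 15373 nuclei of iBAT at room temperature, and between 40 and 256 nuclei in the other 4 libraries. In cold iWAT, 87 nuclei with Ucp1 had Gk at 2437 CPM and 2431 nuclei without it had 103 CPM, a ratio of 23.7 (20.8 to 27.0). The Gk ratio was 4.23 in mPRAT at room temperature, 3.08 in cold mPRAT, 1.86 in iBAT and 1.22 in cold iBAT. Thinned to 1000 UMIs, the Gk ratio was 16.4 in cold iWAT and 2.00 in cold mPRAT, and 19 of the 50 ratios of this split moved beyond their counting intervals. Gpd1 had ratios of 2.21 in cold iWAT, 2.67 in cold mPRAT, 2.09 in mPRAT, 1.12 in iBAT and 1.19 in cold iBAT. Gpat3 ran the other way, with ratios of 0.12 in cold mPRAT, 0.46 in cold iWAT, 0.54 in cold iBAT and 0.62 in mPRAT, but 1.18 in iBAT at room temperature.

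Pck1 had ratios of 0.52 in cold mPRAT, 0.63 in cold iWAT (0.83, 0.64 to 1.08, when thinned to 1000 UMIs), 0.95 in mPRAT, 0.99 in cold iBAT and 1.37 in iBAT. Gpam ratios lay between 1.03 in cold iBAT and 1.82 in mPRAT, and Agpat2 ratios between 0.97 in cold iBAT and 1.63 in cold iWAT. Aqp7 ratios lay between 0.80 (0.36 to 1.54) in cold iWAT and 1.81 in cold mPRAT, and Lpin1 ratios between 0.76 in cold iWAT and 1.28 in cold mPRAT. Thinned to 1000 UMIs, the cold iWAT Aqp7 ratio was 1.57 (0.71 to 3.05). Dgat2 ratios lay between 0.65 and 0.98, and Dgat1 ratios between 0.97 and 1.11. Macrophage-like nuclei as background had a Ucp1 UMI in 0 of 58 in cold iWAT, 1.72% of 174 in mPRAT and 3.12% of 64 in cold mPRAT. In iBAT these shares were 16.7% of 18 and 31.4% of 137 in the cold, so the iBAT split by Ucp1 is the least sharp.

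Most members were adipocyte genes when set beside the other named classes. Over 76 pairs of a class and a library with at least 50 nuclei, Gpd1, Pck1, Gpam, Agpat2, Dgat1 and Dgat2 were higher in adipocyte-like nuclei in all 76, with counting intervals of the ratio above 1. Gpat3 was higher in 74 pairs and Lpin1 in 75. The exception for Lpin1 was skeletal muscle-like nuclei of iBAT at 2 months, with 816 CPM against 572 CPM. Lipin 1 is also a muscle gene, whose loss causes muscle breakdown in people.

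Aqp7 and Gk were shared with other cells. Aqp7 was higher in endothelial-like than in adipocyte-like nuclei in 10 of 11 libraries, at 134 to 432 CPM. In lPRAT at 6 months it was 432 CPM (357 to 520) against 111 CPM, and the remaining library, iBAT at 1 month, had 124 CPM (104 to 147) against 105 CPM. The 8 endothelial markers summed to between 10.2 and 54.1 CPM in adipocyte-like nuclei, and 0 of them were absent there in any library. The part of endothelial RNA in the Aqp7 levels was not tested.

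Gk was higher in adipocyte-like nuclei in 58 of the 76 pairs and lower in 3, and in the other 15 the interval of the ratio held 1. In lPRAT at 6 months, macrophage-like nuclei had 41.8 CPM of Gk against 25.9 CPM. Gk was also higher in kidney tubule-like than in adipocyte-like nuclei of mPRAT at 1 month (443 against 100.4 CPM) and at 2 months (1113 against 590.1 CPM). These nuclei fell in 2 clusters. The 878 nuclei of one carried proximal tubule markers, with Slc34a1 at 4573 CPM, and had Gk at 1234 CPM and Pck1 at 1011 CPM. The 566 nuclei of the other carried Slc12a3 at 7897 CPM and had Gk at 45.8 CPM and Pck1 at 159.8 CPM. Both genes act in gluconeogenesis in the proximal tubule. In adipocyte-like nuclei of mPRAT, Slc34a1 measured 22.2 CPM at 1 month, 28.1 at 2 months, 0.33 at 6 months and 0.095 after cold. Of the 12 kidney markers, 0 were absent in adipocyte-like nuclei of mPRAT at 1 and 2 months and 6 were absent after cold. Their sum was 148.9, 201 and 88.4 CPM in mPRAT by age and 146 CPM after cold. Slc27a2 made up 55.3, 116, 84.1 and 139 CPM of these sums, with Slc12a3 at 23.6 CPM and Kap at 12.5 CPM at 1 month, and iBAT adipocyte-like nuclei held Slc27a2 at 126 to 327 CPM. The part of kidney RNA in the mPRAT values was not tested.

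**Figure D5:**
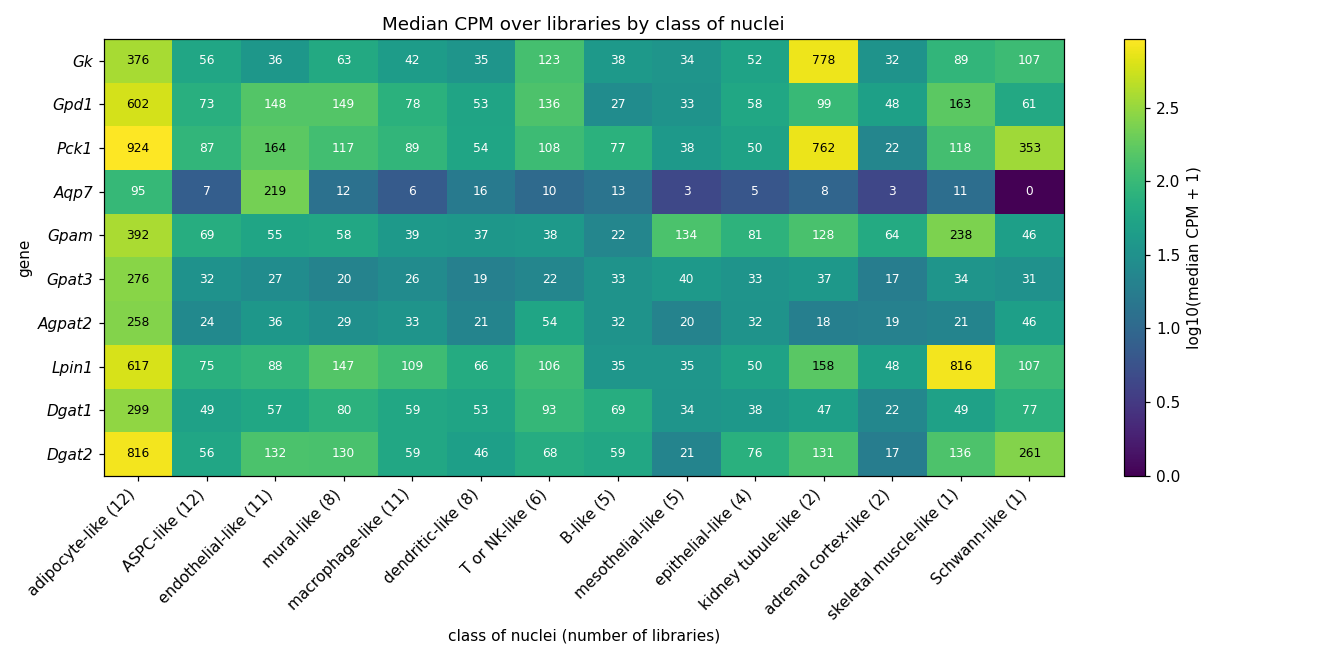
Median CPM over libraries of each gene (rows) in each class of nuclei (columns, number of libraries in brackets), coloured by log10 of CPM plus 1 and printed in each cell. Adipocyte-like nuclei have the highest median for 7 of the genes. The median of Aqp7 is highest in endothelial-like nuclei, that of Gk in kidney tubule-like nuclei and that of Lpin1 in skeletal muscle-like nuclei. These medians cover unlike sets of libraries, 12 for adipocyte-like, 11 for endothelial-like, 2 for kidney tubule-like and 1 for skeletal muscle-like nuclei.

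Other genes of the pathway were taken from 3 lists fixed with earlier results known. Of 14 further glycerolipid synthesis enzymes, 11 to 13 had enough counts in each comparison. In the 3 cold comparisons 1, 1 and 0 of them were 2-fold higher and 1, 0 and 2 lower in mPRAT, iBAT and iWAT. The shares of all genes were 10.7%, 10.3% and 4.47% higher and 13.2%, 18.1% and 14.3% lower. None of the enzymes past 2-fold in these 3 comparisons reached 20 CPM in a compared library. In iBAT over iWAT at room temperature, 4 of 13 were higher and 3 lower, beside 19.2% and 17.7% of all genes. Their median was log2 -0.18, beside 1.23 over the members. In mPRAT over iWAT, 2 of 13 were higher and 0 lower, beside 13.9% and 9.04%, with a median of -0.05. In lPRAT over iWAT, 1 of 13 was higher and 0 lower, beside 11.4% and 8.19%, with a median of -0.19. Gpat4, the second acyltransferase of the endoplasmic reticulum, was higher in iBAT than in iWAT by log2 1.96 (469 against 121 CPM), which is opposite to Gpat3. Plpp3, a lipid phosphate phosphatase, was lower in iBAT than in iWAT by log2 -3.47 (47.0 against 522 CPM). In mPRAT it was above iBAT by 2.76. Agpat1 and Agpat3, which act at the same step as Agpat2, were higher in iBAT than in iWAT by 1.75 and 1.12, and Agpat1 was also higher in mPRAT (1.49) and lPRAT (1.32) than in iWAT. Gpat4 was higher in mPRAT than in lPRAT (1.13) and iWAT (1.02), Plpp1 was lower in mPRAT than in lPRAT (-1.22), and Mogat1 was higher in mPRAT than in iBAT (1.46) and at 6 than at 2 months (1.90). In the cold, iWAT was below iBAT in Gpat4 (-1.03), Agpat1 (-1.60), Agpat3 (-2.23) and Lpin2 (-1.15), and above it in Plpp3 (2.43) and Mogat1 (2.26). Cold mPRAT was above cold iBAT in Plpp3 (1.74).

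Of 9 further glycerol genes, Gpd2, the mitochondrial glycerol-3-phosphate dehydrogenase of the shuttle with Gpd1, was at 1048 CPM in iBAT, 489 in mPRAT, 80.6 in iWAT and 73.2 in lPRAT at 6 months, with a log2 ratio of 3.70 of iBAT over iWAT, 2.74 of mPRAT over lPRAT, 2.60 of mPRAT over iWAT and -1.10 of mPRAT over iBAT. In the cold it passed 2-fold in iWAT alone, 259.9 against 80.6 CPM (log2 1.69, 1.62 to 1.76), beside 0.77 in mPRAT and 0.20 in iBAT. Pcx, pyruvate carboxylase, which feeds glyceroneogenesis ahead of Pck1, was higher in cold iWAT by 1.12 (1537 against 708 CPM). After cold, 2 of 9 glycerol genes with counts were higher in mPRAT, 0 of 8 in iBAT and 2 of 7 in iWAT. Those lower were 1, 2 and 1, all below 20 CPM in both libraries. The shares of all genes were 10.7%, 10.3% and 4.47% higher and 13.2%, 18.1% and 14.3% lower. In iBAT over iWAT at room temperature 2 of 8 were higher and 0 lower, beside 19.2% and 17.7% of all genes. In mPRAT over iWAT 4 of 9 were higher and 1 lower, beside 13.9% and 9.04%. Of the genes past 2-fold in these 2 depot comparisons, only Gpd2 reached 20 CPM in a compared library. In cold iWAT over cold iBAT, Gpd2 was at -2.21, Pcx at 1.03 and Pgp, a glycerol-3-phosphate phosphatase, at -1.86, and Pgp was at 1.02 in cold mPRAT over room temperature. Aqp3, another glycerol channel, was at 23.5 CPM in cold mPRAT and 1.04 CPM at room temperature (log2 4.50). The part of epithelial RNA in the Aqp3 value was not tested either.

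Of 6 lipolysis genes, 1, Abhd5, the activator of the lipase Pnpla2, was higher in cold iWAT by log2 1.28 (324 against 134 CPM). Of all genes 4.47% were higher there and 14.3% lower. In cold mPRAT and cold iBAT 0 of the 6 passed 2-fold, beside 10.7% and 10.3% of all genes higher and 13.2% and 18.1% lower. Between 2 and 6 months Pnpla2 was higher in lPRAT by 1.56 and Abhd5 by 1.07, or 2 of the 6, beside 15.3% of all genes. G0s2, the inhibitor of Pnpla2, was higher in mPRAT by 1.13, and between 1 and 2 months it was lower in iBAT (118 against 235 CPM). lPRAT was above iWAT in Pnpla2 (1.33) and Abhd5 (1.68), beside 11.4% of all genes. mPRAT was below lPRAT in Pnpla2 (-1.06), beside 11% of all genes. Cold iWAT was above cold iBAT in Abhd5 (1.16) and below it in G0s2 (-2.02).

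Across the 12 libraries, the genes whose log2 levels ran most like a member were found for the 5 members with at least a 4-fold range, among 3718 genes. Libraries differ in depth, depot, age and temperature, which were not separated here, so these are descriptions. Gk ran most like Ppargc1a (Pearson r = 0.96), the coactivator of thermogenic genes, then Nup54 and Apmap. Gpd1 ran most like Uqcrc1, Acadvl and Hk2 (0.98 each). Agpat2 ran most like Cs (0.95), then Gbe1 and Mpc1. Gpam ran most like Mcts1 (0.90), Atad1 and Pygl, and Gpat3 like Klhl2 (0.95), Fmnl2 and Ccdc80 (0.94 each). Among the members, Gk with Agpat2 had the highest r (0.875) and Gpd1 with Gpat3 the lowest (-0.77).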

How the data were processed

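Nuclei were sorted, and their RNA was sequenced as 10x 3′ libraries, 1 per group. The deposited values are UMI counts per gene and barcode, made with Cell Ranger 7.0.0 per the file headers, on mm10 per the submitters' processing notes. Whether introns were counted is not given in the sources used here. Barcodes with at least 500 UMIs and 300 genes and at most 10% mitochondrial UMIs were kept. Those with the highest doublet scores were removed at a preset rate of 0.8% per 1000 nuclei, leaving 96649 of 119035. The share removed thus rose with the size of the library. In iBAT at 6 months and room temperature 3653 of 21368 were removed, where the scoring method's own threshold called 0.00468%. Clusters (scanpy 1.11.5, 2000 variable genes, 30 components, Leiden resolution 1) were made without the members, the other pathway lists, Ucp1, sex-linked, mitochondrial and ribosomal protein genes, and 29 of 31 were named from markers.

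Counts were summed over adipocyte-like nuclei and given as CPM. Intervals are exact Poisson or exact conditional binomial (scipy 1.17.1), or Clopper-Pearson for shares, at 95%, and cover counting error only. A member was called at a 2-fold ratio. The same calls over all genes with at least 20 counts give the background. The computations were checked on simulated data. edgeR 4.0.16 was used only for TMM scaling as an alternative. Other alternatives kept doublets, dropped the mitochondrial limit, averaged nuclei, subtracted the macrophage-like level, used a marker gate, required 1000 genes, or added 10 CPM.

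All 10 members are named in every comparison. From the 3 lists of other pathway genes, those past 2-fold with at least 20 CPM in a compared library are named (Aqp3 against a library at 0 is not), and for likeness the 3 genes with the highest r. Members and lists were chosen with earlier results of these data known.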

Additional observations from a re-analysis of the deposited data

Results flagged for a closer look

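The 5 differences below are those where a member ran one way in one depot and the opposite way in another, with both counting intervals clear of 0 and the log2 ratios at least 1 apart. Smaller opposite differences, such as Pck1 after cold in mPRAT (-0.32) and iBAT (0.23), are not listed. Each rests on 1 library per group, and none of the differences was tested.

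After cold, Gpat3 was lower in mPRAT and iBAT and higher in iWAT. The log2 ratio in mPRAT minus that in iWAT was -1.08, and in iBAT minus that in iWAT it was -1.97. Within adipocyte cluster 0 the Gpat3 ratio was above 0 in each of these depots, at 0.42, 0.25 and 0.29.

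Between 2 and 6 months, Pck1 was lower in mPRAT and iBAT and higher in lPRAT. The difference of log2 ratios was -1.84 for mPRAT minus lPRAT and -2.01 for iBAT minus lPRAT. Gk at these ages was lower in iBAT (-0.45) and higher in lPRAT (0.71, 0.23 to 1.21), a difference of -1.16. The lPRAT levels were 15.9 CPM, from 40 UMIs, and 25.9 CPM. Macrophage-like nuclei of lPRAT held Gk at 10.4 CPM (1.26 to 37.5) at 2 months and 41.8 CPM at 6 months. The mix of that class differed, with 198 and 393 nuclei of cluster 9 and 2 and 859 of cluster 29 at these ages. The leading genes of cluster 9 included F13a1 and Cd163, and those of cluster 29 Gpnmb and Atp6v0d2. The part of this mix in the macrophage-like values was not tested. With the macrophage-like level subtracted no lPRAT Gk ratio could be computed. The comparisons that involve lPRAT share its library at 2 months, whose adipocyte-like nuclei had the lowest median depth and were mostly of a cluster that held few lPRAT nuclei at 6 months.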

How the results depend on the processing

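No paired analysis was possible because each group has 1 library. Medians are log2 ratios over the 10 members. Of 15 comparisons, 7 had a median that changed sign, the 5 by age, mPRAT over iBAT and cold mPRAT over cold iBAT. It did so with TMM scaling in 4 of the comparisons by age, all but iBAT 6 over 2 months, and in cold mPRAT over cold iBAT. With the macrophage-like level subtracted it did so in iBAT and lPRAT 6 over 2 months and mPRAT over iBAT. With at least 1000 genes it did so in mPRAT 2 over 1 months and lPRAT, with doublets kept in mPRAT 6 over 2 months, without the mitochondrial limit in lPRAT and cold mPRAT over cold iBAT, and with the mean of nuclei in lPRAT. With TMM scaling the medians were 0.197 for mPRAT 2 over 1 months, 0.167 for lPRAT 6 over 2 months, 0.591 for cold iBAT, 0.904 for cold iWAT, -0.201 for mPRAT over iBAT, 1.07 for mPRAT over iWAT, 1.15 for iBAT over iWAT, 0.374 for lPRAT over iWAT and -0.229 for cold mPRAT over cold iBAT. The members higher with TMM were 2 in mPRAT 2 over 1 months, 2 in lPRAT, 1 in cold mPRAT and 1 in lPRAT over iWAT, and those lower were 1 in cold mPRAT over cold iBAT and 3 in cold iWAT over cold iBAT. With the mean of nuclei, 2 members were higher in mPRAT 2 over 1 months and 1 in cold mPRAT, and the medians were 0.0661 for mPRAT 6 over 2 months and 0.664 for cold iWAT. With the macrophage-like level subtracted, the medians were -0.115 and 0.216 in mPRAT by age, -0.188 and 0.055 in iBAT by age and 0.125 in lPRAT. They were 0.544, 0.511 and 0.931 in cold mPRAT, iBAT and iWAT, and 0.200, 0.118 and 1.41 for mPRAT over iBAT, lPRAT and iWAT. They were 1.36 and 0.715 for iBAT and lPRAT over iWAT, and 0.222 and -0.89 for cold mPRAT and cold iWAT over cold iBAT. That subtraction gave 1 member higher in mPRAT 6 over 2 months, 2 in lPRAT, 3 in cold iBAT and 5 in cold iWAT, with 0 lower in cold iBAT and in mPRAT over iBAT. For Gpat3 in the cold iBAT comparison, the subtracted levels came from 10 macrophage-like UMIs at room temperature and 4 in the cold. With at least 1000 genes the medians were -0.14 in iBAT 6 over 2 months, with 2 lower, 0.258 in lPRAT and 0.448 in cold iBAT, and the marker gate gave 1.26 for iBAT over iWAT. The cause of these shifts was not tested. Of the 41 member ratios past 2-fold, 34 stayed past it with TMM, 34 of the 40 that could be computed with the macrophage-like level subtracted, 37 with 10 CPM added, 39 with the mean of nuclei and 40 with at least 1000 genes. Subtraction gave 147 of the 150 ratios. Thinning to 1000 UMIs moved 19 of the 50 ratios of the Ucp1 split. The depth of lPRAT at 2 months and the few macrophage-like nuclei of iBAT (38 at 2 months) limit the precision.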
